A study of Arabidopsis thaliana with 60 samples.

Results

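The comparison described here sets Arabidopsis leaves sampled at 8 min under the title HL against leaves sampled at 8 min under the title HS. Its members were the 3 libraries of each title, 6 of the 60 in the series, and the 18332 of 32833 genes whose normalized counts averaged 10 or more in those 6 libraries. A normalized count is the number of reads counted for a gene divided by 1 size factor of its library. Genes such as AT3G62570 and AT4G20770 lay just inside that limit, with means of 10.012 and 10.015, and AT2G35658 and ATMG00630 lay just outside it, with 9.9965 and 9.9945.

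Every plant in the series was bolting wild-type Col, raised on peat pellets at 23 °C with 14 h of light at 50 µmol per square metre per second and 10 h of dark. For HL a gooseneck lamp raised the light on the leaf to 1700 µmol in the same unit, and for HS a heat block sat 2 cm below it. The 6 libraries of this comparison came from plants given a single stress for 8 min. Other 8 min groups used for context were both leaves of plants that had HL on one leaf and HS on another (HL&HS plants), and leaves with both at once (HL+HS). At 2 min there were HL leaves and HS leaves of singly stressed plants, and the control leaves were taken at 0 min, all with 3 libraries a group. Nothing in the labels says that libraries of 1 group came from separate plants, so the p-values measure only the spread between these libraries, which may be technical. They also give no temperature for the heated leaf.

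The labels of these 6 libraries disagree with themselves. The title and description of 3 libraries say HL while their treatment entry says heat, and the title and description of the other 3 say HS while their treatment entry says high light. The groups are therefore called titled HL and titled HS throughout, and a value "higher in titled HL" belongs to the libraries so titled, whichever stress they had. In the HL&HS plants at 8 min and in the single stresses at 2 min, title and treatment entry name the same stress, and neither shares a library with the comparison here.

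Plant cells meet heat with heat shock factors, transcription factors that bind heat shock elements and switch on chaperones. Small heat shock proteins hold unfolding proteins, and HSP101, HSP70 and HSP90 with their partners refold or disentangle them. Intense light reaches the nucleus through reactive oxygen, photoreceptors and the regulator HY5, and induces ELIP proteins, which bind free chlorophyll, and flavonoids, which screen light. Either stress, like touch or wounding, can also switch on early regulators of the AP2/ERF, CBF, WRKY and C2H2 zinc finger families.

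Titled HL libraries held 11416000 to 12941434 counted reads and titled HS libraries 12174730 to 12826880. The titled HL libraries had the widest replicate spread of the 20 groups, a coefficient of variation beyond counting error of 4.76%, against 1.98% in titled HS. In that group 1 library, replicate 2, stood apart from the other 2: chi-square per gene between library pairs ran from 1.41 to 6.81 in titled HL and from 1.88 to 2.2 in titled HS. Without it the small heat shock protein and chaperone counts given further on were the same, 11 rather than 10 rapid AP2/ERF and CBF genes were called and 6 rather than 8 flavonoid genes. The leaf genes of the light-harvesting and Rubisco list were abundant in both groups: RCA, Rubisco activase, ranged from 447700 to 470500 normalized counts in titled HL and from 492100 to 497400 in titled HS. Genes at least 10 times as abundant in control stem as in control leaf are called stem-abundant here. The 528 of them that averaged 200 or more normalized counts in control stem summed to 6.43% to 6.70% of their control stem level in titled HL and to 4.95% to 5.31% in titled HS. Control leaves had 3.78% to 3.98%, a value that the rule itself holds low. Chloroplast-encoded genes took 0.0763% to 0.0836% of reads in titled HL and 0.0360% to 0.0436% in titled HS.

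Of the 18332 genes, 1665 differed between titled HL and titled HS at an adjusted p under 0.05, which is 9.08% (limma on log2(normalized count + 1), with Benjamini-Hochberg adjustment over all genes tested). Log2 differences given here are on that scale and understate differences of scarce genes. There were 798 genes higher in titled HL (4.35%) and 867 lower (4.73%). A difference of at least 2-fold was found for 146 genes higher (0.796%) and 87 lower (0.475%). That imbalance depended on scarce and stem-abundant genes. With a filter at a mean of 50 there were 81 higher and 71 lower, and without stem-abundant genes 81 higher and 86 lower. For 5192 genes, 28.3% of those tested, the 3 titled HL values lay wholly above or below the 3 titled HS values. The count of 1665 became 981, 934 and 1018 without replicates 1, 2 and 3 of titled HS, and 2169 without replicate 2 of titled HL.

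The 2 directions had different make-up. Of the 146 genes at least 2-fold higher in titled HL, 23 were in the heat gene lists, 26 were chloroplast-encoded and 64 (43.8%) were stem-abundant, while stem-abundant genes made up 3.20% of all genes tested. Of the 87 genes at least 2-fold lower, 1 was stem-abundant and 0 were in the heat lists or chloroplast-encoded. The stem-abundant transcripts move with the groups as given above, and their part in any single gene's difference was not tested. In whole leaves, a change in the number of cells of a type and a change in RNA per cell cannot be told apart.

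**Figure D1:**
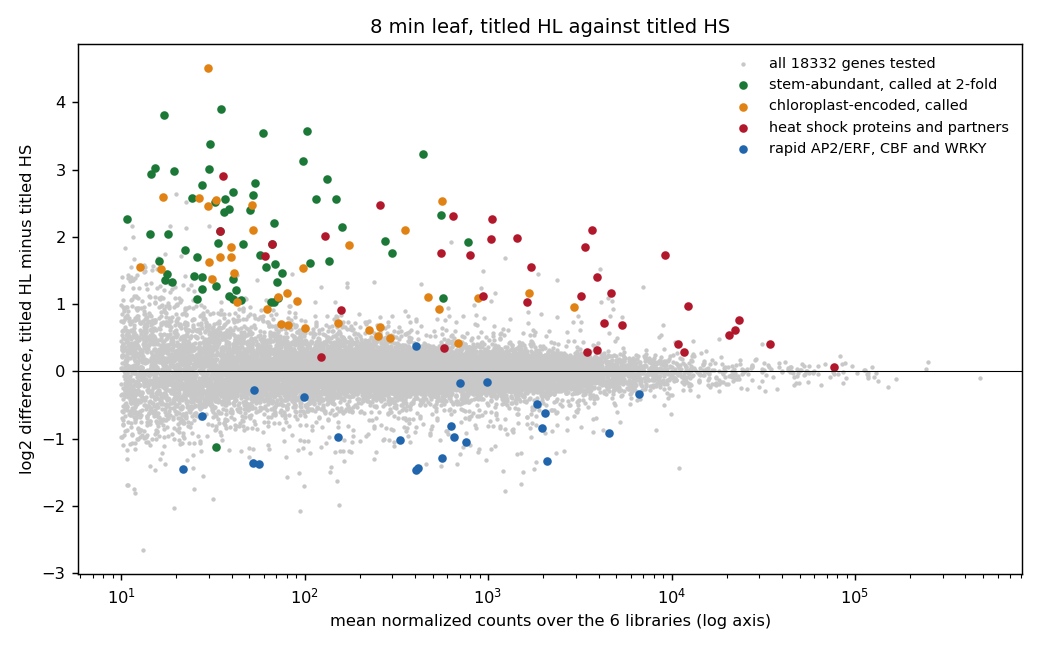
Log2 difference, titled HL minus titled HS, against the mean normalized count over the 6 libraries (log axis) for the 18332 genes tested. Red points are the heat shock protein lists, blue the AP2/ERF, CBF and WRKY regulators, green the stem-abundant genes called at 2-fold, and orange the chloroplast-encoded genes called; red, green and orange lie mostly above 0 and blue mostly below.

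The promoters of the strongest heat genes and of the strongest lowered genes are printed because the 2 directions differed in which short motifs these windows hold. Each window is the 250 bases before the annotated gene start in RefSeq TAIR10.1, read 5′ to 3′ on the gene's strand. The heat genes are the 4 members of the heat lists with the largest differences whose window holds a heat shock element core, searched as GAANNTTC or TTCNNGAA and shown in capitals.

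HSP21 (AT4G27670), chr4:13819972-13820221, minus strand: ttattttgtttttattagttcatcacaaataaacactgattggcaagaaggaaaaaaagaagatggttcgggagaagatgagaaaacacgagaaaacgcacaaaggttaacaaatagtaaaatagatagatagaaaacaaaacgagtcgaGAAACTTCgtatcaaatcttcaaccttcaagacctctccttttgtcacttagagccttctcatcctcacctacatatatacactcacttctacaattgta
AT1G53540, chr1:19980049-19980298, plus strand: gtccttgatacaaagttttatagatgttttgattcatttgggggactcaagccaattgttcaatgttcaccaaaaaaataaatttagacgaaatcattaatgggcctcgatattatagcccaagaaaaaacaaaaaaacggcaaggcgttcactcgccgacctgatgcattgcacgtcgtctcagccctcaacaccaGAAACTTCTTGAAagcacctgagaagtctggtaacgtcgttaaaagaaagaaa
HSP17.6A (AT5G12030), chr5:3884839-3885088, minus strand: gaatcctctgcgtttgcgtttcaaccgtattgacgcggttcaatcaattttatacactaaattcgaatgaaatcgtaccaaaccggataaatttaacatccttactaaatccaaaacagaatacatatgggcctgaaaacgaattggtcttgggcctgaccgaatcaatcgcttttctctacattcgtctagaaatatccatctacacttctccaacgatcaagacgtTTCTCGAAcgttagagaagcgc
BAG6 (AT2G46240), chr2:18985883-18986132, plus strand: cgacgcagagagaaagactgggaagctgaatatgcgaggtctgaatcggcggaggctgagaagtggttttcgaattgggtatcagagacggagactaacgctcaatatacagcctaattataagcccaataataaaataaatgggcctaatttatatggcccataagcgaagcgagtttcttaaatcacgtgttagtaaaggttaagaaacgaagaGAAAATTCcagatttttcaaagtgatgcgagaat

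In AT1G53540, 2 matches overlap and form 1 run of capitals. The lowered genes are the 4 with the largest differences among genes called at least 2-fold lower whose window holds a W-box, the element that WRKY proteins bind, searched as TTGACC or TTGACT on either strand and shown in capitals.

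PHI-1 (AT1G35140), chr1:12851733-12851982, plus strand: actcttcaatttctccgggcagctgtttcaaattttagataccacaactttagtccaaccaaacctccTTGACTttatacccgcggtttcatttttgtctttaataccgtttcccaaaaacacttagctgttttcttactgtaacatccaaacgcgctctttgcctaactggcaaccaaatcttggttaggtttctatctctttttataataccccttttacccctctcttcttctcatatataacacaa
DLAH (AT1G30370), chr1:10720844-10721093, minus strand: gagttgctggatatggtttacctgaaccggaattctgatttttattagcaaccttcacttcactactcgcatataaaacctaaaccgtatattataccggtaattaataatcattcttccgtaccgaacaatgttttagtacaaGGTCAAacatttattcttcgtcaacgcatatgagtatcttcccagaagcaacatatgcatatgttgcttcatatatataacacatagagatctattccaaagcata
AT1G80440, chr1:30241202-30241451, plus strand: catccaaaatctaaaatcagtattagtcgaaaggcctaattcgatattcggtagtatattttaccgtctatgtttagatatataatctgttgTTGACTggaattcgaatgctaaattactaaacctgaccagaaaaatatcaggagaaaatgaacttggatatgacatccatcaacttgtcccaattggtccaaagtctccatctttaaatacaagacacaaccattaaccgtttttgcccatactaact
PUB23 (AT2G35930), chr2:15084560-15084809, minus strand: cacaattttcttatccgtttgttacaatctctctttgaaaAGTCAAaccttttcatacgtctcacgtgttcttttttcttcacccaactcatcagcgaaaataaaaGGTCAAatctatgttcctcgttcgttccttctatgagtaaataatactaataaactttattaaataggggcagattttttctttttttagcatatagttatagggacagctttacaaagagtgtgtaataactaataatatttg

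A W-box stood in 45 of the 86 windows of genes at least 2-fold lower (52.3%) and in 17 of the 119 windows of genes at least 2-fold higher (14.3%), beside 28.4% of all 27443 promoters of that length. A heat shock element core stood in 26 of 119 windows of the genes at least 2-fold higher (21.8%) and in 10 of 86 windows of the lowered genes (11.6%), beside 16.1% of all promoters. Without stem-abundant genes, 19 of 55 higher windows held it (34.5%). Of the 16 small heat shock protein genes, 7 held it (43.8%), as did 5 of the 14 rapid AP2/ERF and CBF genes (35.7%), 10 of which were lower in titled HL. Of the 21 large chaperones and partners, a list that includes HSP101, 5 held the core (23.8%). HSP101 had no match in its window. The rapid stress response element core CGCGTT stood in 8 of 86 lowered windows (9.30%), in 3 of 119 higher windows (2.52%) and in 2.59% of all. These shares describe letters in a window, carry no test and say nothing of which factor was bound.

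Small heat shock proteins made the clearest group. Of 16 members, all of which were tested, 15 were higher in titled HL, 0 were lower and 14 of the 15 differed by at least 2-fold. The list median was a log2 difference of 1.93, beside -0.00228 for all genes tested. HSP17.6A, a cytosolic member, had 1625, 1848 and 1768 normalized counts in the titled HL libraries, against 388, 343 and 361 in titled HS and a mean of 34.1 in control. The groups did not overlap, and the log2 difference was 2.26 ± 0.08 (SE, adjusted p = 3.6e-11 in limma). AT1G53540, an HSP20-like chaperone, had 1067, 1112 and 1022 in titled HL against 227, 204 and 211 in titled HS, a log2 difference of 2.31.

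HSP23.6-MITO, the mitochondrial member, had 407, 524 and 384 normalized counts in titled HL, against 88.0, 59.5 and 89.4 in titled HS. Its control mean was 2.27, so both titled groups stood far above control and titled HL above titled HS. HSP21, the chloroplast member, was scarcer, with 45.6, 79.5 and 67.1 in titled HL against 13.1, 5.41 and 5.71 in titled HS, and was listed at 0 in all control leaves. Its log2 difference of 2.91 was the largest of the list. The member that did not pass the test, AT4G21870, had 102, 147 and 149 in titled HL against 93.7, 137 and 112 in titled HS, and its control mean of 182 was above all 6.

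**Figure D2:**
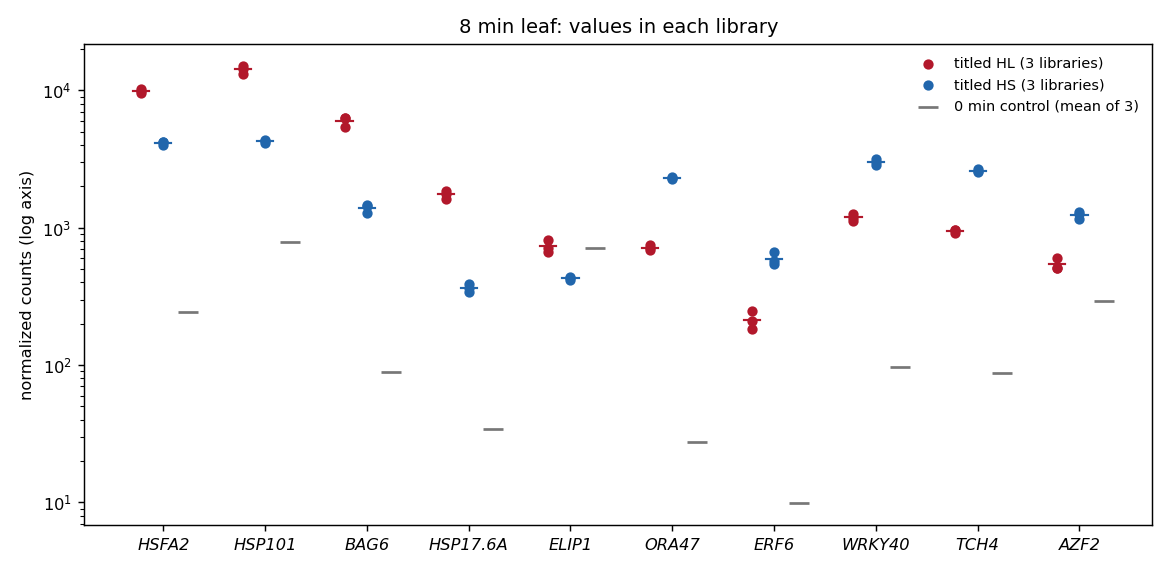
Normalized counts (log axis) of 10 genes in each of the 3 titled HL libraries (red) and 3 titled HS libraries (blue), with short bars at the group means and the 0 min control mean in grey. HSFA2, HSP101, BAG6, HSP17.6A and ELIP1 are higher in all titled HL libraries, and ORA47, ERF6, WRKY40, TCH4 and AZF2 are lower in all of them.

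Large chaperones and their partners moved the same way with smaller differences. Of 20 members tested out of 21, 19 were higher in titled HL, 0 were lower and 7 differed by at least 2-fold, with a median of 0.74. HSP101, the disaggregase needed for acquired thermotolerance, had 14360, 13170 and 15070 normalized counts in titled HL, against 4146, 4264 and 4384 in titled HS. Its control mean was 782, and the log2 difference of 1.73 ± 0.06 (SE, adjusted p = 3.6e-11 in limma) was among the 3 smallest p of all genes. BAG6, a co-chaperone, had 6326, 5379 and 6245 in titled HL, against 1429, 1282 and 1466 in titled HS, a 4.29-fold difference and the largest of the list.

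The heat-inducible HSP70 (AT3G12580) had 26690, 26520 and 27580 normalized counts in titled HL, against 17650, 17320 and 18030 in titled HS, so a gene already high differed by only 0.61 on the log2 scale. HSP90.1, the inducible HSP90, had 16830, 15150 and 17010 in titled HL against 8227, 8389 and 8297 in titled HS. The constitutive HSC70-1 did not pass the test, with 79230, 75920 and 80270 in titled HL against 75990, 74730 and 74040 in titled HS. The organellar disaggregases CLPB3 and CLPB4 were both higher in titled HL, by 0.41 and 1.03 on the log2 scale. ERD2 (AT1G56410) had 0 reads in all 6 libraries and was not tested.

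Heat shock factors, the regulators above these genes, differed in a few members. Of 15 tested out of 21, 4 were higher in titled HL and 1 was lower, with a median of 0.11. HSFA2, the factor that sustains the heat response, had 9830, 9604 and 10240 normalized counts in titled HL, against 3987, 4211 and 4181 in titled HS. The log2 difference was 1.26 ± 0.05 (SE, adjusted p = 1.9e-10 in limma), and the control mean was 244. HSFA7A had 1013, 923 and 1039 in titled HL against 253, 247 and 280 in titled HS, and the repressors HSFB1 and HSFB2B were higher by 0.59 and 0.54 on the log2 scale. HSFA4A ran the other way, with 881, 870 and 830 in titled HL against 1289, 1468 and 1288 in titled HS. The constitutive activators HSFA1A, HSFA1B, HSFA1D and HSFA1E did not pass the test, with log2 differences between 0.03 and 0.15.

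Of the MBF1C, DREB2 and raffinose list, 5 of 8 members were tested and 3 were higher in titled HL. MBF1C, a coactivator of thermotolerance, had 5745, 6931 and 6273 in titled HL against 2975, 3596 and 3386 in titled HS, though 25.9% of its exon length lies on a gene of the other strand. DREB2A and GOLS1 were higher by 0.60 and 0.37 on the log2 scale. Of 13 genes of the endoplasmic reticulum unfolded protein response, 4 were higher and 1 lower. ERDJ3A, a DnaJ protein, had 1228, 1269 and 1358 in titled HL against 577, 519 and 531 in titled HS. The signalling factor BZIP60 was lower by 0.29 on the log2 scale, and its adjusted p was 0.0067 over the 6 libraries but 0.0509 and 0.0545 without replicates 1 and 2 of titled HS (limma).

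Light-responsive genes showed fewer and smaller differences. Of 15 photoprotection and high-light genes, 4 were higher in titled HL, 0 were lower and the median was 0.05. ELIP1 had 663, 819 and 711 normalized counts in titled HL, against 416, 435 and 434 in titled HS. The control mean was 708, within the titled HL range and above every titled HS library. HYH and HY5, bZIP regulators of light responses, were higher in titled HL by 0.61 and 0.41, and BBX32, a B-box regulator, by 0.32, all on the log2 scale. HY5 had 595, 717 and 745 in titled HL against 512, 556 and 479 in titled HS, all below its control mean of 919.

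Other light genes did not pass the test. ELIP2 had 77.2, 85.6 and 67.1 normalized counts in titled HL against 54.3, 52.3 and 51.4 in titled HS (adjusted p = 0.096 in limma). APX2, an ascorbate peroxidase strongly induced by excess light, had 31.6, 40.8 and 36.3 in titled HL against 48.7, 46.9 and 41.9 in titled HS, with a control mean of 7.57. PSBS, the sensor of non-photochemical quenching, lay between 54550 and 55500 in titled HL and between 54690 and 54910 in titled HS.

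Of 9 flavonoid genes tested out of 12, 8 were higher in titled HL, with a median of 0.78. FLS1, flavonol synthase, had 230, 242 and 247 normalized counts in titled HL against 88.0, 97.4 and 116 in titled HS, and its control mean was 256. TT4, chalcone synthase, had 3492, 4772 and 3727 in titled HL against 2110, 2287 and 2834 in titled HS. TT4 thus also had a titled HS range below its control mean of 3310. DFR, which makes leucoanthocyanidins, varied widely within groups, with 600, 809 and 569 in titled HL against 260, 411 and 512 in titled HS. The count of 8 was 5 and 4 without replicates 1 and 2 of titled HS, and 4 in DESeq2. MYB111, a flavonol regulator, had an adjusted p of 0.048 (limma) that exceeded 0.05 without replicate 2 or 3 of titled HS or replicate 3 of titled HL, reaching 0.114, 0.142 and 0.0781, and was 0.0527 with a pseudocount of 0.1. Its means of 16.7 in titled HL and 4.33 in titled HS were both below its control mean of 39.6.

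Early stress regulators were lower in titled HL as a group. Of 12 rapid AP2/ERF and CBF genes tested out of 14, 0 were higher and 10 were lower, 6 of them by at least 2-fold, with a median of -1.16. ERF6, a mediator of early oxidative and osmotic responses, had 184, 249 and 210 normalized counts in titled HL, against 540, 669 and 576 in titled HS and a control mean of 9.89. Both groups were thus far above control, and titled HS the higher. RRTF1, a redox-responsive factor, had 28.1, 24.4 and 34.4 in titled HL against 73.1, 72.1 and 81.8 in titled HS. CBF2, a regulator of cold acclimation, had 193, 249 and 212 in titled HL against 420, 485 and 426 in titled HS. CBF3 and DDF1 did not pass the test, and ERF105 had 0 reads in the 6 libraries.

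ORA47, an AP2/ERF activator of jasmonate and abscisic acid synthesis, had 1 of the 8 largest negative differences among called genes with a mean of at least 100 and no overlap between groups. It had 716, 691 and 743 normalized counts in titled HL, against 2331, 2307 and 2254 in titled HS, a log2 difference of -1.68 ± 0.06 (SE, adjusted p = 8.9e-11 in limma). The control mean was 27.3. Of 11 WRKY genes, 6 were lower and 1, WRKY60, was higher in titled HL. WRKY40, a repressor of defence and abscisic acid responses, had 1185, 1261 and 1124 in titled HL against 2846, 2992 and 3142 in titled HS. WRKY60 lost its call without replicate 2 or 3 of titled HS or replicate 1 of titled HL (adjusted p = 0.0884, 0.145 and 0.0898 in limma).

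Markers of reactive oxygen followed the regulators. Of 10 genes marking singlet oxygen or hydrogen peroxide, 6 were lower in titled HL and 1 was higher, with a median of -0.57. AZF2, a C2H2 zinc finger repressor, had 511, 601 and 508 normalized counts in titled HL against 1148, 1290 and 1263 in titled HS. ZAT10 had 2685, 2924 and 2855 in titled HL against 4571, 4837 and 4428 in titled HS. ZAT12, a related zinc finger gene, had 628, 652 and 645 in titled HL against 744, 748 and 730 in titled HS, and its log2 difference of -0.21 did not pass the test (adjusted p = 0.089 in limma), though without replicate 2 of titled HL it did (adjusted p = 0.0468). FER1, a ferritin, was the higher marker, with overlapping groups and an adjusted p of 0.034 that became 0.149, 0.169 and 0.114 without replicates 1 and 2 of titled HS and replicate 3 of titled HL (limma).

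RBOHD, the NADPH oxidase of the apoplastic oxidative burst, had 2609, 2039 and 2603 in titled HL against 3599, 3743 and 3559 in titled HS. It belongs to the antioxidant list, in which 3 of 14 genes were higher and 2 lower. APX1, a cytosolic ascorbate peroxidase, had 8077, 8333 and 7774 in titled HL against 6827, 6273 and 6376 in titled HS.

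Touch and hormone genes that passed the test were lower in titled HL, with VSP1 as the exception. Of 9 touch and calmodulin-like genes, 5 were lower and 0 higher. TCH4, a xyloglucan-modifying enzyme induced by touch, had 912, 964 and 959 normalized counts in titled HL, against 2561, 2653 and 2583 in titled HS, a log2 difference of -1.46 ± 0.06 (SE, adjusted p = 1.9e-10 in limma). Of 19 jasmonate genes, 6 were lower, among them the lipoxygenase LOX4 by 0.86 and the repressor JAZ6 by 0.52 on the log2 scale. VSP1, a storage protein induced by jasmonate, was the 1 higher member and is stem-abundant. Of 13 abscisic acid and dehydration genes tested out of 14, 6 were lower and 0 higher. NCED3, the rate-limiting enzyme of abscisic acid synthesis, had 876, 829 and 970 in titled HL against 1248, 1277 and 1324 in titled HS. HAI2, a phosphatase, lost its call without replicate 2 or 3 of titled HS or replicate 3 of titled HL (adjusted p = 0.0813, 0.0997 and 0.0636 in limma).

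Light-harvesting, Rubisco and clock genes gave almost no calls. Of 21 light-harvesting and Rubisco genes tested out of 22, 1 was higher and 0 lower, with a median of -0.03. That gene was RBCS1B, a Rubisco small subunit with 34760, 37320 and 34000 in titled HL against 27570, 25170 and 27560 in titled HS, and 12% of its 50-base exon windows also occur elsewhere in the genome. LHCB1.5 had 0 reads while its close relatives were abundant, and how reads common to near-identical copies were counted is not given. Of 14 clock genes, 0 were higher or lower. Of 10 shade and phytochrome genes, 4 were lower, led by HFR1, a shade-induced bHLH factor. HFR1 had 253, 210 and 290 in titled HL against 468, 487 and 498 in titled HS. The control mean of RBCS1B was 34820, within its titled HL range, and that of HFR1 was 425, between its titled groups.

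**Figure D3:**
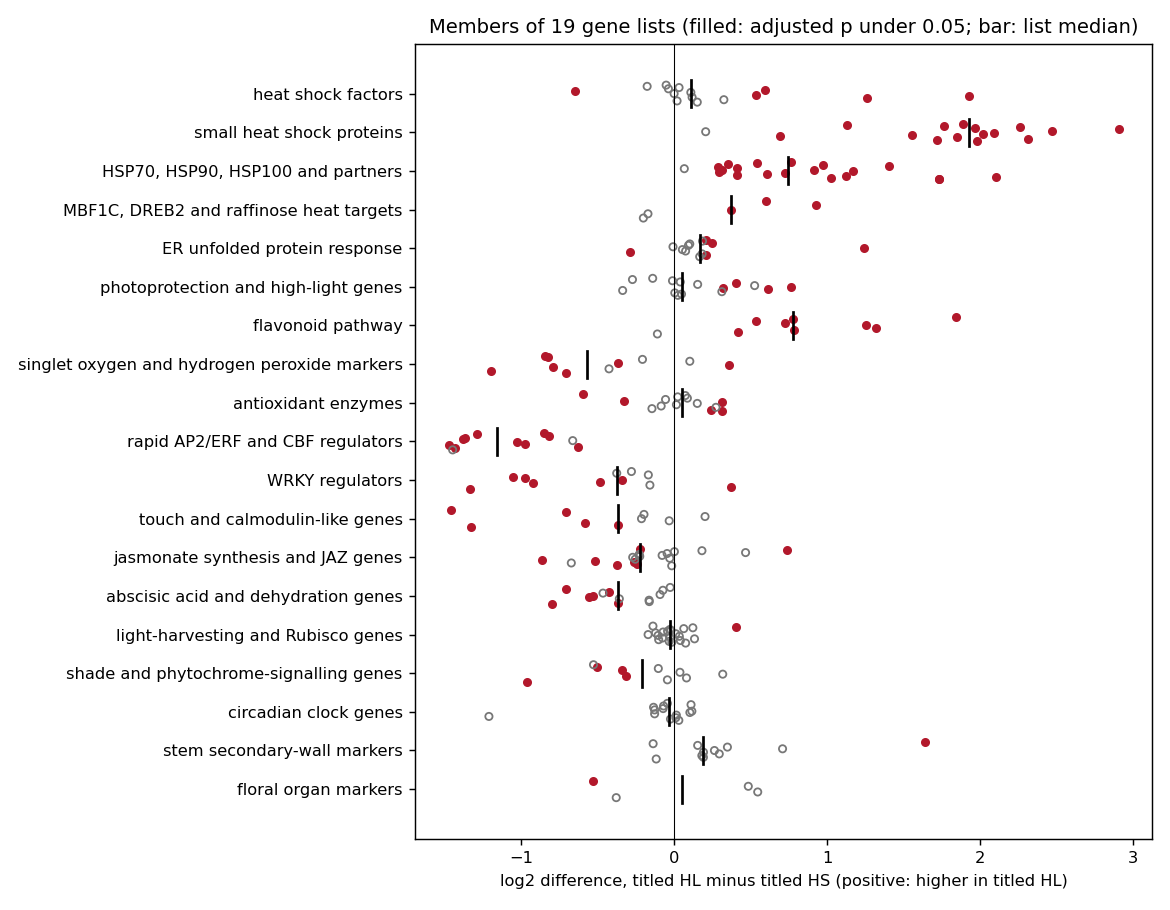
Log2 difference, titled HL minus titled HS, for every tested member of 19 gene lists, 1 row a list. Filled points passed the test at an adjusted p under 0.05, open points did not, and the bar is the list median: 1.93 for small heat shock proteins, -1.16 for rapid AP2/ERF and CBF regulators and -0.03 for light-harvesting and Rubisco genes.

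The called genes with the largest differences, at a mean of at least 100 normalized counts and with no overlap between groups, were mostly stem-abundant on the higher side. Of the 8 largest, ADS4, CYP96A15, KNAT1, PER64, BAS and LTP4 were stem-abundant. CYP96A15, an alkane hydroxylase of cuticular wax, had 770, 819 and 819 in titled HL against 76.8, 81.2 and 97.0 in titled HS, which is 4.83% and 0.51% of its control stem mean. KNAT1, a homeobox gene of stem and meristem, had 230, 232 and 241 in titled HL against 33.7, 27.1 and 34.2 in titled HS. ADS4, a fatty acid desaturase, had the largest difference, 3.57 on the log2 scale, with 161, 198 and 212 in titled HL against 24.4, 14.4 and 9.51 in titled HS.

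The stem-abundant genes did not move evenly. Of 587 tested, 98 were higher in titled HL and 5 lower, with a median of 0.23. Of 11 secondary-wall markers of stem fibres and vessels tested out of 14, FLA12 passed the test as higher and 0 were lower. FLA12, a fasciclin-like protein, had 195, 206 and 219 in titled HL against 58.1, 68.5 and 70.4 in titled HS. The cellulose synthase CESA4 averaged 293 in titled HL and 263 in titled HS, with a log2 difference of 0.15 that did not pass. The summed secondary-wall markers ranged from 1711 to 1940 in titled HL and from 1280 to 1618 in titled HS, and 0 or 1 of the 14 was at 0 in each library. Summed floral organ markers ranged from 363 to 388 in titled HL and from 410 to 489 in titled HS, with SEP1 the 1 of 4 tested that passed, lower in titled HL by 0.53 on the log2 scale.

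Chloroplast-encoded genes were higher in titled HL in 38 of 81 tested and lower in 0, with a median of 0.68. ATCG00350 had 1025, 856 and 995 normalized counts in titled HL, against 137, 186 and 175 in titled HS, and a control mean of 162. Whether selection for polyadenylated RNA preceded these libraries is not given in the sources used here.

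On the lower side, the 8 largest negative differences under the same limits held 0 stem-abundant genes: PHI-1, AT1G80440, BT5, ORA47, ERF6, AT4G27654, AT3G02840 and AT5G21940. PHI-1, a phosphate-responsive gene, had 66.7, 53.0 and 63.5 normalized counts in titled HL, against 199, 289 and 255 in titled HS. AT1G80440, a kelch repeat protein, had 572, 624 and 490 in titled HL against 1860, 1926 and 1984 in titled HS, and its control mean of 500 was within the titled HL range. BT5, a BTB and TAZ domain protein, had 760, 815 and 867 in titled HL against 2194, 2410 and 2301 in titled HS. DLAH and PUB23, shown above for their W-box, had means under 100 and so were not among these 8. DLAH, an acylhydrolase, had 12.3, 14.3 and 10.9 in titled HL against 67.5, 50.5 and 34.2 in titled HS. PUB23, a ubiquitin ligase of stress and immune signalling, had 40.4, 48.9 and 49.0 in titled HL against 150, 155 and 152 in titled HS.

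Exons of ORA47, BT5, AT3G02840, AT5G21940 and SEP1 overlap a gene of the other strand over 8.44%, 10.5%, 17.1%, 9.55% and 35.8% of their length. Whether counting used strand is not given, so reads of those partners cannot be told apart from theirs.

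Which stress the titled libraries had was read against genes of known role and against contrasts whose labels agree. By textbook role, the heat lists favoured the treatment entries: small heat shock proteins and chaperones were higher in titled HL, the libraries entered as heat. By the same kind of reading, the called photoprotection and flavonoid genes favoured the titles. ELIP1, HY5, HYH and BBX32, 4 of 15 photoprotection genes, and 8 flavonoid genes were higher in titled HL. In these lists 0 genes were lower. ELIP1 and FLS1 in titled HL were, however, at about their control level, with means of 731 and 240 against control means of 708 and 256. HY5 and MYB111 were below their control means in every titled library. Markers of reactive oxygen, through which intense light acts, had the opposite direction: 6 of 10 were lower in titled HL and 1 was higher. Read as light markers they favoured the treatment entries. ZAT10 averaged 2821 in titled HL and 4612 in titled HS, though either stress can switch on C2H2 zinc finger genes. APX2 averaged 36.2 and 45.8 and did not pass the test. The known genes therefore did not all point to 1 assignment.

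These readings rest on known roles, and the heat, flavonoid, photoprotection and reactive oxygen lists can be set beside the contrasts whose labels agree. At 2 min 3786 of 18132 genes (20.9%) differed between HL and HS leaves (12.9% higher in HL, 8.02% lower). Those 2 min libraries held 31725824 to 43420418 counted reads, and the 0 and 8 min libraries 11071918 to 12998149. Counts of calls at 2 and 8 min are therefore not on the same footing. Of 13 small heat shock proteins tested at 2 min, 11 were higher in HL and 0 lower, with a median of 1.54. HSFA2 averaged 883 ± 47.7 normalized counts in HL leaves and 243 ± 4.62 in HS leaves at 2 min (SD, n = 3 each), the second close to its control mean of 244. BAG6 averaged 435 ± 45.7 in HL leaves and 77.5 ± 4.91 in HS leaves. At 2 min the leaves labelled HL by both labels thus held more of these transcripts than those labelled HS, the direction that the titles give at 8 min. Large chaperones and partners were also higher in HL, in 18 of 20 tested, with 0 lower. Other lists differed: of 5 MBF1C, DREB2 and raffinose genes tested, 2 were higher and 3 lower. Of 13 unfolded protein response genes, 0 were higher in HL and 8 lower. Flavonoid genes went against the titles' direction at 2 min, with 2 of 8 tested higher in HL and 4 lower. Each of the 4 differed by at least 2-fold, and the list median was -0.56. Of 15 photoprotection genes, 7 were higher in HL at 2 min and 2 lower. Among the higher was ELIP1, with 548 ± 24.25 in HL leaves and 427.5 ± 5.083 in HS leaves (SD, n = 3 each). Both means were below its control mean of 708.

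At 8 min in HL&HS plants, 2476 of 18213 genes (13.6%) differed between HL leaf and HS leaf (5.08% higher in the HL leaf, 8.52% lower). Of 16 small heat shock proteins, 1 was higher and 2 were lower in the HL leaf, with a median of -0.04. Of 20 large chaperones and partners, 11 were higher in the HL leaf and 1 was lower, the titles' direction, with a median of 0.12. Flavonoid genes had 1 higher and 1 lower of 8 tested (median -0.19), and photoprotection genes 3 higher and 3 lower of 15. ELIP1 was among the higher, the titles' direction, with 711 ± 38.8 in HL leaves and 596 ± 20.9 in HS leaves (SD, n = 3 each). HSFA2 averaged 21280 ± 899 in HL leaves and 21070 ± 657 in HS leaves of these plants (SD, n = 3 each), both above titled HL with 9893 ± 325 and titled HS with 4126 ± 122. In HL+HS leaves, with both stresses together, it averaged 32220 ± 346. Of 10 markers of reactive oxygen, 4 were lower and 1 was higher in the HL leaf of HL&HS plants (median -0.16), the titles' direction. At 2 min 1 was lower and 4 were higher in HL (median 0.08), the reverse. ZAT10 averaged 4872 in HL leaves and 6227 in HS leaves of HL&HS plants, and 453 and 210 at 2 min.

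**Figure D4:**
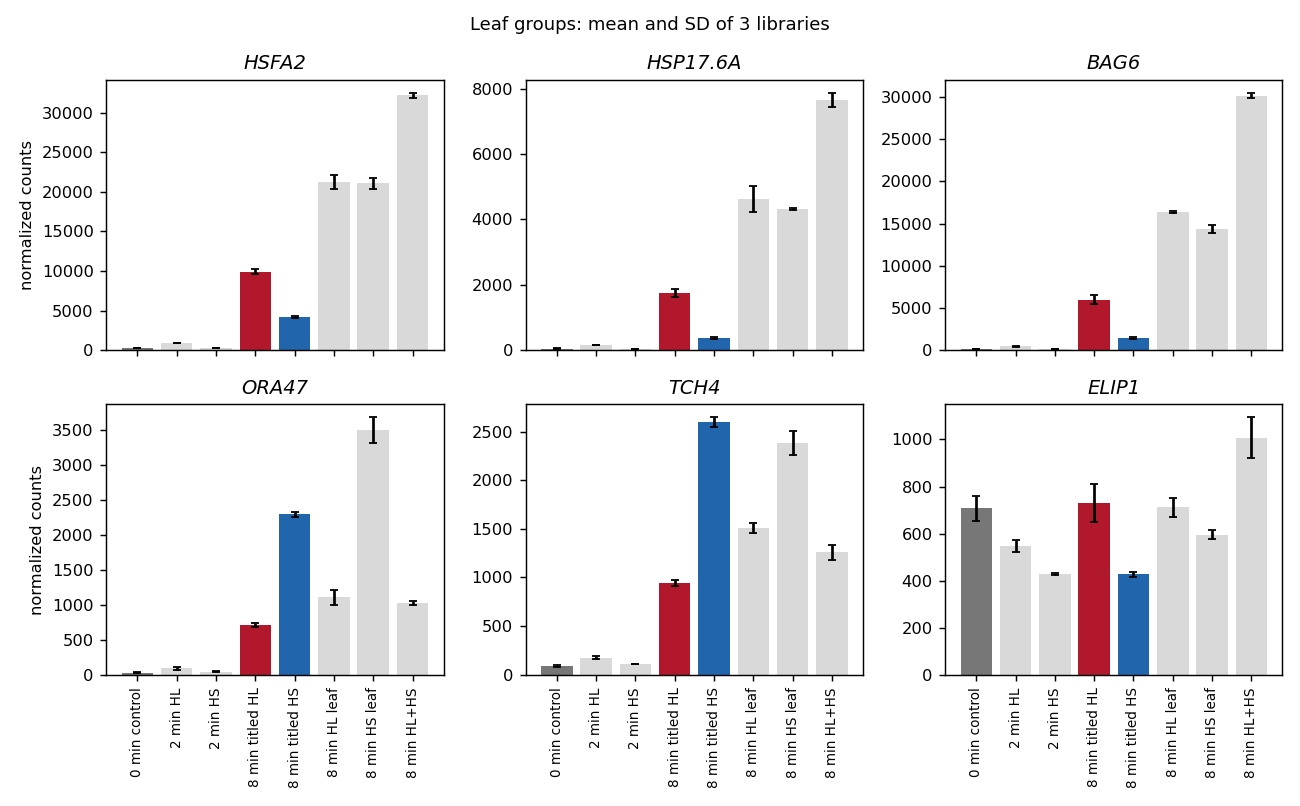
Mean normalized counts with SD error bars (3 libraries a group) of 6 genes in control, 2 min and 8 min leaf groups. For HSFA2, HSP17.6A and BAG6 titled HL (red) lies above titled HS (blue) and both lie below the HL&HS-plant and HL+HS leaves; for ORA47 and TCH4 titled HS is the higher of the pair.

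Early regulators and most of the genes that differed strongly in the HL&HS plants went with the titles. Of 11 rapid AP2/ERF and CBF genes tested there, 9 were lower in the HL leaf and 0 higher, with a median of -0.54. ORA47 averaged 1108 ± 110 in HL leaves and 3504 ± 185 in HS leaves of these plants (SD, n = 3 each), and its log2 differences were -1.68 between titled HL and titled HS and -1.66 between HL leaf and HS leaf. Of 209 genes at least 2-fold different in the HL&HS plants (138 higher in the HL leaf, 0.758%, and 71 lower, 0.39%), 179 were tested between the titles, and 146 of them (81.6%) had the sign that the titles give. The share was 82.1% (115 of 140) without stem-abundant genes. By direction it was 93 of 111 higher genes and 53 of 68 lower genes. Over all 18015 genes tested in both contrasts, which were not chosen by size, the log2 differences correlated only weakly (Pearson r = 0.24 across genes, 0.22 without stem-abundant genes).

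The 2 min contrast gave no such share. Of 146 genes at least 2-fold different at 2 min (42 higher in HL, 0.232%, and 104 lower, 0.574%), 126 were tested between the titles and 52 (41.3%) had the titles' sign. The 2 min and HL&HS-plant contrasts, in each of which title and entry agree, also shared a sign in only 54 of 158 genes (34.2%) different at least 2-fold in the HL&HS plants. At 2 min 4 of 8 rapid AP2/ERF and CBF genes were higher in HL and 1 was lower, the reverse of both 8 min contrasts. Genes are not replicates, and these shares and correlations carry no p. That title and entry agree in a contrast does not itself show which stress its leaves had.

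**Figure D5:**
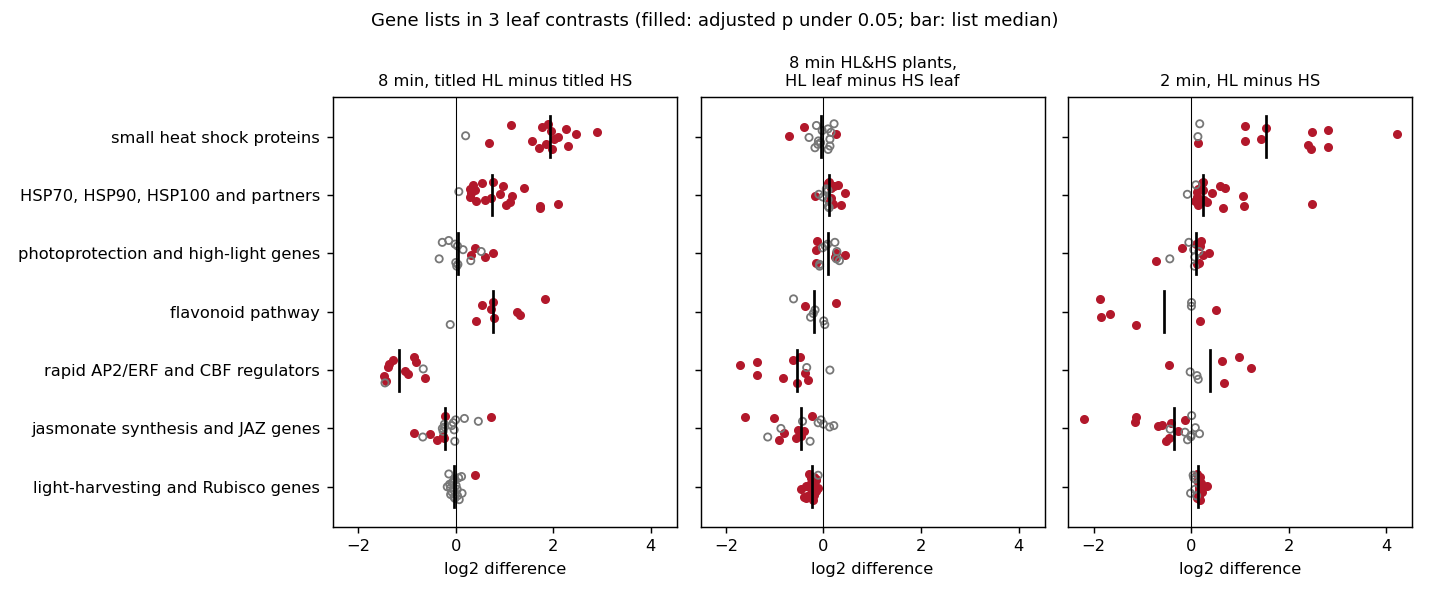
Log2 differences of the tested members of 7 gene lists in 3 leaf contrasts: titled HL minus titled HS at 8 min, HL leaf minus HS leaf of HL&HS plants at 8 min, and HL minus HS at 2 min. Filled points passed the test at an adjusted p under 0.05 and bars are medians; small heat shock proteins have medians of 1.93, -0.04 and 1.54, and rapid AP2/ERF and CBF regulators -1.16, -0.54 and 0.39.

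The titled difference departed from that of the HL&HS plants in 1335 of 18299 genes (7.3%), 818 of them more positive between the titles (4.47%) and 517 more negative (2.83%; limma on the 12 libraries). The departure was at least 2-fold in 129 genes more positive (0.705%) and 65 more negative (0.355%). HSP101 differed by 1.63 more between titled HL and titled HS than between HL leaf and HS leaf on the log2 scale, and HSFA2 by 1.25. Genes of the unfolded protein response were called higher in 4 of 13 cases in titled HL and in 11 of 13 in the HL leaf, a contrast of counts that was not itself tested. Light-harvesting and Rubisco genes were lower in the HL leaf in 20 of 21 tested and in titled HL in 0. For ORA47 the difference of differences did not pass the test (adjusted p = 0.95 in limma).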

How the data were processed

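Groups were taken from the titles of single-end RNA-seq libraries. Values were deposited as normalized counts (unit signal), and 100% of them came out as whole reads within 0.001 reads after division by 1 step per library. The submitters' processing notes name FastQC 0.11.7, STAR 2.4.0.1, DESeq2 1.20.0 and the build TAIR10. The counting tool, strand setting and annotation are not given in the sources used here. Gene names and sequences come from RefSeq TAIR10.1, which matched 32548 of 32833 IDs. Here log2(normalized count + 1) was fitted with limma 3.58.1 in R 4.3.3 (lmFit, eBayes with trend, two-sided). Only the compared libraries entered each fit, because the groups differ in replicate spread. Genes needed a mean of at least 10, which, with the pseudocount, understates differences of scarce genes. Calls used a Benjamini-Hochberg adjusted p under 0.05. The code was tested on simulated data. Named genes were 7 known markers, the 8 largest differences in each direction with a mean of at least 100 and no overlap, the called extremes of each list and the 3 smallest p; other genes were named after their values were seen. Members and lists were chosen with earlier results of these data known. Same-numbered libraries of the titled groups had correlations of deviations of 0.023, 0.04 and -0.008, so numbers were not treated as pairs. Alternatives covered filters, pseudocounts, scaling, edgeR 4.0.16, DESeq2 1.42.0, all leaf libraries in 1 fit and leaving out each library. No columns of values remained unassigned.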

Additional observations from a re-analysis of the deposited data

Results flagged for a closer look

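The titled HL minus titled HS difference was set against the HL leaf minus HS leaf difference of HL&HS plants. Of 18299 genes tested, 1335 (7.3%) differed between these contrasts. Of the 45 named genes, 28 did so at an adjusted p under 0.05 (limma). Apart from the known markers, they were named for their titled difference, which is part of this value. Their share can therefore not be compared with that of all genes. Each value that follows is a difference of differences on the log2 scale, positive where the titled difference is the larger.

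Several heat genes were more positive between the titles. The value was 1.25 for HSFA2, 1.83 for HSFA7A, 1.63 for HSP101, 0.51 for HSP70, 2.21 for HSP23.6-MITO, 2.75 for HSP21, 1.91 for BAG6, 1.02 for MBF1C and 0.82 for ERDJ3A. HSFA4A had -0.47. ELIP1 had 0.51 and MYB111 2.45, and RBCS1B had 0.51. MYB111 was scarce, with 21.1, 16.3 and 12.7 normalized counts in titled HL against 7.49, 3.61 and 1.90 in titled HS.

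Other genes were more negative between the titles. The value was -1.47 for PHI-1, -0.93 for AT3G02840, -0.65 for ERF6, -0.36 for ZAT10, -0.48 for AZF2, -0.52 for WRKY40, -0.80 for TCH4 and -0.88 for HFR1. Early regulators were not uniform in this: ORA47 and ZAT12 had -0.02 and 0.11 and did not pass the test (adjusted p = 0.95 and 0.53 in limma).

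Stem-abundant genes went both ways. ADS4 had 3.59, BAS 3.20 and VSP1 2.34, while CYP96A15 had -2.85, PER64 -3.32 and LTP4 -2.13. Some of these values rest on very low counts in HL&HS plants, so their size depends on the pseudocount. ADS4 averaged 0.68 and 0.72 normalized counts in their HL and HS leaves. CYP96A15, PER64 and LTP4 averaged 0.70, 2.82 and 6.34 in HS leaves. Replicates also varied widely, with PER64 at 254.6 ± 157.4 (SD) in HL leaves and VSP1 at 300 ± 198.5 in HS leaves. Secondary-wall markers summed to 4595 in HL-leaf replicate 3, against 2167 and 1837 in the others. The chloroplast-encoded ATCG00350 had 1.89. The summed level of the 528 stem-abundant genes was 6.43% to 6.70% of control stem in titled HL, 4.95% to 5.31% in titled HS, 5.22% to 6.03% in the HL leaf and 5.45% to 5.88% in the HS leaf, and its part in these values was not tested.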

How the results depend on the processing

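Of 751 refits of 45 named genes, 735 kept direction and side of the threshold, 15 lost the call, 1 gained it and 0 reversed, and the changes fell on 6 genes, all described above. With all leaf libraries in 1 fit, which lends the wide titled HL group a spread from tighter groups, calls were 4109 for titled HL against titled HS, 3068 for the difference of differences and 1559 at 2 min, and the share with the titles' sign was 74.5%. DESeq2 called 1949 genes at 2 min and 4 flavonoid genes, and 1509 between the titles, where edgeR called 1719. A filter at a mean of 50 left 152 genes at 2-fold and a sign share of 88.8%, and a pseudocount of 10 gave 87.9%; the first tests fewer scarce genes. With the replicate block the titled count was 2042, and no count moved by over 1.5 times. The cause of shifts for which none is named was not tested. Leaving out 1 library gave 934 to 2169 titled calls, 205 to 256 at 2-fold, 4 to 7 flavonoid calls, 1800 to 2227 calls in HL&HS plants, 2751 to 3544 at 2 min, 912 to 1471 for the difference of differences and a sign share of 75.3% to 84.9%. Without stem-abundant genes 1536 titled calls were left. TMM rescaling of the libraries shifted the balance of directions in 2 contrasts. Calls higher in HL at 2 min went from 61.6% to 54.9% of all calls. Calls higher in the HL leaf of HL&HS plants went from 37.4% to 43.6%. Between the titles the share was 47.9% and then 48%. How far small shifts shared by a gene list depend on scaling was not tested. In the titled libraries 3 reads are worth 5.26 to 6.11 normalized counts, so depth limits what can be said of scarce genes.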
